A study of Mus musculus with 16 samples.

Results

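The selenoproteins of the endoplasmic reticulum (ER) and type 1 iodothyronine deiodinase were examined as transcripts in mouse liver over 4 genotypes. The members were taken by a rule on name and cellular location that does not use their values, though with earlier results of these data known. They are *Selenof*, *Selenom*, *Selenok*, *Selenos*, *Selenot* and *Selenon*, which encode selenoproteins of the ER lumen or membrane, and *Dio1*. The product of *Dio1* is a membrane selenoprotein that activates thyroid hormone. All 7 were present among the 18209 named genes of the table, and all 7 were among the 15781 genes with enough reads to be tested.

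Total RNA was taken from livers of mice labelled male and 20 days old, with 4 mice in each genotype. *Trsp* fl/fl mice carry floxed alleles of *Trsp*, the gene of the selenocysteine tRNA, and served as controls. *Trsp* fl/fl::AlbCre mice carry in addition a Cre recombinase driven by the albumin promoter, which acts in hepatocytes, so that Kupffer, endothelial, stellate and blood cells of the same liver keep the gene. The same pair of genotypes was made on a background in which sensor cysteines of KEAP1, the inhibitor of the transcription factor NRF2, are replaced by serine on both alleles. The mice without Cre bear the label *Keap1* C226S&C613S homo::*Trsp* fl/fl, called mutant *Keap1* without Cre below. Those with it bear the label *Keap1* C226S&C613S homo::*Trsp* fl/fl::AlbCre, called mutant *Keap1* with AlbCre. Floxed *Trsp* is thus shared by all 16 mice. The comparisons ask what loss of the tRNA does to each transcript and whether the KEAP1 cysteines matter for it.

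Each library held between 11324788 and 19106213 reads on named genes (median 15449265). All 10 hepatocyte markers examined were present in every library, and none of the markers of other liver cells found in the table was at 0 throughout a genotype. *Trsp* itself is not a row of the table, so the deletion was read only through selenoprotein transcripts: *Gpx1*, the cytosolic glutathione peroxidase whose mRNA is known to depend on selenium supply, ranged from 8692 to 18758 scaled reads in *Trsp* fl/fl and from 2759 to 4060 in *Trsp* fl/fl::AlbCre. A scaled read is a read divided by the size factor of its library. Replicate 1 of mutant *Keap1* with AlbCre had 28799 *Xist* reads, where the remaining 15 libraries had 22 to 50. It had 2 reads on 4 Y-linked genes, where they had 1830 to 3066, which goes against its label. That library also had the lowest summed hepatocyte markers (1116406 scaled reads) and the highest summed erythroid markers (38385) of all libraries. Values without it are given for *Selenot*, *Selenok* and *Selenom*. The other results that use it, among them those of *Dio1* and of the gene lists, are given with it included.

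Selenoproteins carry selenocysteine at a UGA codon, which is otherwise a stop signal. The tRNA made from *Trsp*, together with a stem-loop in the mRNA, lets the ribosome read that codon as selenocysteine. When the codon is not read through, it can act as a premature stop, and mRNAs with such a stop well upstream of their last exon junction are a known target of nonsense-mediated decay. In the ER, SELENOF binds the glucosyltransferase that checks glycoprotein folding, SELENOM is a small thioredoxin-like protein of the lumen, SELENOK and SELENOS are membrane proteins of the machinery that exports misfolded proteins for degradation, SELENOT is a membrane thioredoxin-like protein, and SELENON takes part in ER calcium handling. DIO1 converts thyroxine into the active hormone triiodothyronine and is abundant in liver.

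The codon at which the tRNA acts is shown for each member, since it sets where translation would stop without selenocysteine. Each line gives the coding strand 5′ to 3′ with 12 bases on each side, or up to the stop codon where that is closer, and the capitals mark the selenocysteine codon, written as DNA (GENCODE M21 transcripts, GRCm38).
*Selenof*: gaagtctgcggaTGAaaattggggagg
*Selenom*: acctgtggaggaTGAcagttgaatcgc
*Selenok*: atggctggtggaTGAggaaggtaa
*Selenos*: tcatctggcggcTGAaactaa
*Selenot*: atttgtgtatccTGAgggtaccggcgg
*Selenon*: gaccagtcctgcTGAggttccgggcgg
*Dio1*: ggcagttgcaccTGAccttcatttctt

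The codons lie at chr3:144590645-144590647 (*Selenof*, plus strand, exon 3 of 5), chr11:3516273-3516275 (*Selenom*, plus strand, exon 2 of 5) and chr14:29973440-29973442 (*Selenok*, plus strand, exon 4 of 5). Those of *Selenos* and *Selenot* lie at chr7:66088844-66088846 (plus strand, exon 6 of 6) and chr3:58585238-58585240 (plus strand, exon 2 of 6). The codons of *Selenon* and *Dio1* lie at chr4:134542338-134542340 (minus strand, exon 9 of 12) and chr4:107297700-107297702 (minus strand, exon 2 of 4). *Selenok* and *Selenos* carry theirs at the very end of the coding sequence, at codon 92 of 94 and codon 189 of 190, so their lines above run into the true stop codon. The remaining members would lose a larger part of the protein: *Selenot* has its UGA at codon 49 of 195, *Selenom* at 48 of 145, *Dio1* at 126 of 257, *Selenof* at 93 of 162 and *Selenon* at 428 of 557.

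In the control livers the members spanned a wide range of levels. Per kilobase of transcript, *Selenof* was the most abundant in *Trsp* fl/fl at 1234 ± 250 scaled reads per kb (SD, n = 4), before *Selenot* (916 ± 140), *Dio1* (663 ± 379) and *Selenos* (586 ± 89.9). *Selenok* followed at 216 ± 19.2 scaled reads per kb, then *Selenom* (38.0 ± 3.3) and *Selenon* (34.6 ± 6.4). The ranges of neighbours overlapped in this order except between *Selenos* and *Selenok* and between *Selenok* and *Selenom*. In *Trsp* fl/fl::AlbCre the order changed at the upper end, where *Selenos* at 570 ± 35.7 scaled reads per kb stood beside *Selenot* at 513 ± 39.5 with overlapping ranges, and *Dio1* at 234 ± 183 stood below both.

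With *Trsp* knockout, *Selenot* fell in both *Keap1* backgrounds, and *Selenok* fell when both backgrounds were averaged. In *Trsp* fl/fl::AlbCre against *Trsp* fl/fl, 1 of 7 members was lower by limma at a Benjamini-Hochberg adjusted p under 0.05, where 0.114% of all tested genes were lower, and 0 were higher. The same count, *Selenot* alone, was found between the mutant *Keap1* genotypes, where 0.418% of all genes were lower. For the mean of both backgrounds 2 of 7 members were lower and 0 higher, against 0.741% of all genes lower. The median log2 fold change of the 7 members was -0.56 with wild-type *Keap1*, against a median of -0.01 over all genes, and all 7 values were negative, as were 52.3% of all genes. With mutant *Keap1* the median was -0.21 and 4 of 7 were negative, as were 50.7% of all genes. By the rule of the study, an absolute log2 fold change over 1 with an adjusted p under 0.01, 0 members were called with wild-type *Keap1*, with mutant *Keap1* or in the mean, where 0.215%, 0.171% and 0.266% of all genes were. By limma 5 members had an unadjusted p under 0.05 with wild-type *Keap1*, 4 with mutant *Keap1* and 4 in the mean, where 11.0%, 13.6% and 13.8% of all genes did. Limma voom on the reads recovered from the table called 1, 1 and 2 members. Summed hepatocyte markers (10 genes) were lower in mutant *Keap1* with AlbCre than without Cre, from 1116406 to 1948450 against 2081471 to 2447630 scaled reads with no overlap, and their part in the values with mutant *Keap1* was not tested. With wild-type *Keap1* the sums of the 2 genotypes overlapped, from 1784722 to 2167064 with AlbCre and from 1831274 to 2127375 without.

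**Figure D1:**
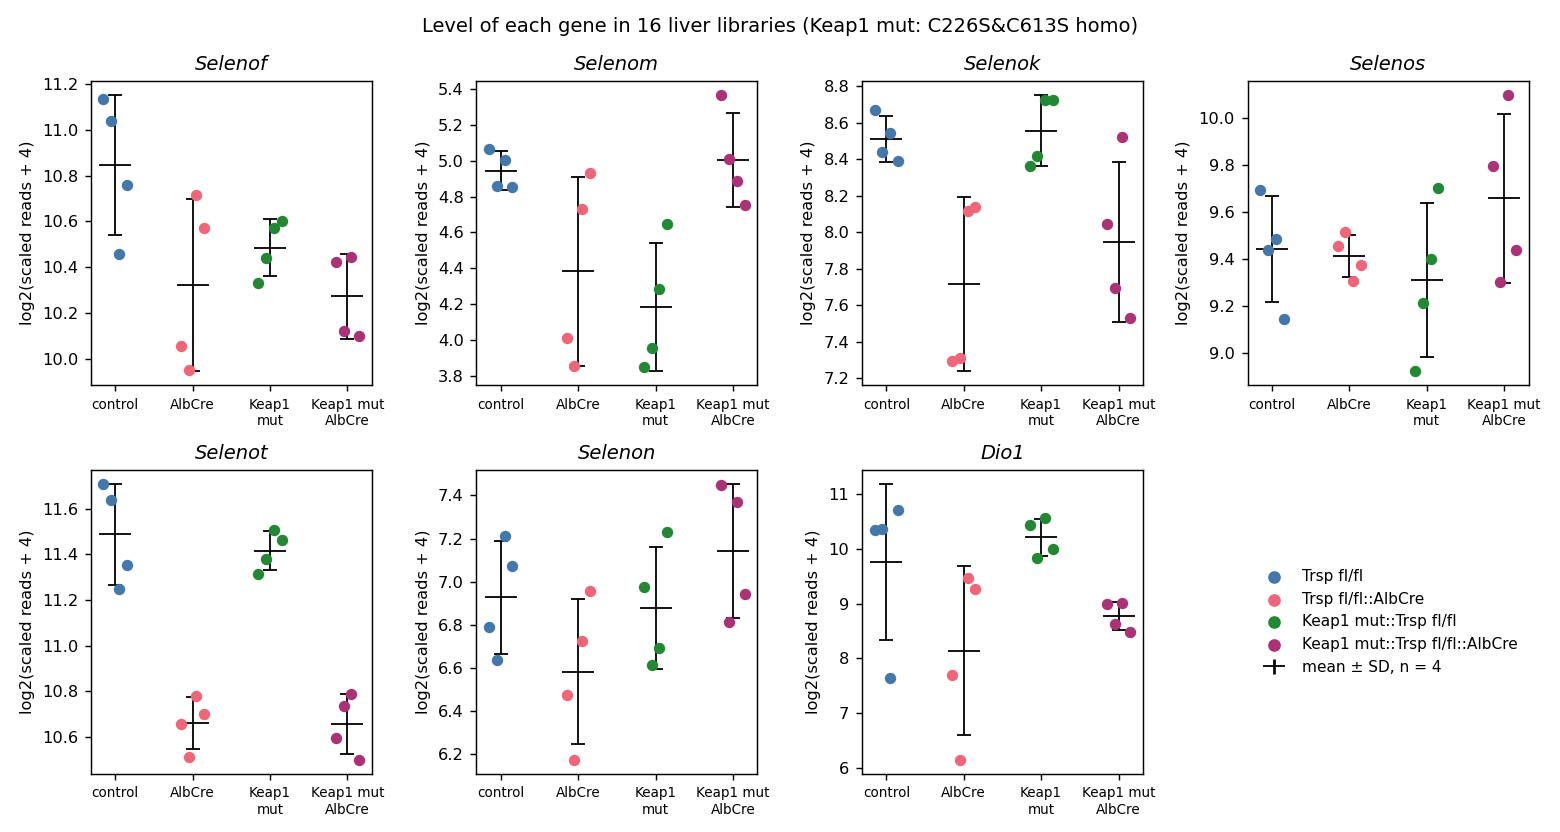
Level of the 7 genes in 16 liver libraries, as log2(scaled reads + 4), with a separate vertical axis for each gene. Points are single mice in the order of their replicate numbers, and bars give the mean ± SD of 4 mice; "control" is *Trsp* fl/fl. *Selenot* shows 2 separate bands, from 10.50 to 10.79 in the 8 AlbCre livers and from 11.25 to 11.71 in the 8 others, while the other genes overlap between the same 2 sets.

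*Selenot* showed the clearest difference. In *Trsp* fl/fl the 4 livers had 3345, 3183, 2426 and 2609 scaled reads, and in *Trsp* fl/fl::AlbCre they had 1610, 1454, 1753 and 1658. With mutant *Keap1* and no Cre the values were 2540, 2662, 2902 and 2814, and with AlbCre on that background they were 1544, 1701, 1766 and 1444. Every one of the 8 knockout livers was therefore below every one of the 8 livers without Cre, which held for 0.133% of all tested genes. Its log2 fold change was -0.83 with wild-type *Keap1* (SE 0.11, limma adjusted p = 0.00099) and -0.76 with mutant *Keap1* (SE 0.11, limma adjusted p = 0.0036). These are decreases to a ratio of 0.564 and 0.591. The 2 effects differed by 0.07 (95% interval -0.27 to 0.40, limma adjusted p = 0.89), so a difference between backgrounds was not detectable. The call in each background held with any of the 16 libraries left out. Without replicate 1 of mutant *Keap1* with AlbCre, the value with mutant *Keap1* was -0.74 (limma adjusted p = 0.013). The annotation lists 1 processed pseudogene of *Selenot*, and reads shared with it were not measured.

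*Selenok* lies in the same ER membrane as *Selenot*, where its product binds derlins and the ATPase that extracts misfolded proteins and also serves a palmitoyltransferase. The *Trsp* fl/fl livers had 403.5, 342.5, 369.4 and 330.8 scaled reads and the *Trsp* fl/fl::AlbCre livers had 152.9, 154.7, 273.4 and 277.5. On the mutant *Keap1* background they were 324.5, 337.5, 419.3 and 418.6 without Cre and 260.1, 202.8, 363.7 and 181.1 with it. The groups did not overlap with wild-type *Keap1*, which was the case for *Selenok* and *Selenot* among the members and for 2.62% of all genes in that direction. With mutant *Keap1* replicate 3 of the AlbCre group lay among the controls, so that 7 of 8 knockout livers were below every control. *Selenok* had a log2 fold change of -0.80 (SE 0.23, limma adjusted p = 0.18) with wild-type and -0.61 (SE 0.23, limma adjusted p = 0.24) with mutant *Keap1*, and neither passed alone. Their mean was -0.70 (SE 0.16, limma adjusted p = 0.035). That call is close to the threshold: it was kept in 4 of 16 fits with a library left out, over which the mean effect stayed between -0.80 and -0.63 with adjusted p from 0.014 to 0.081. It was also lost with library totals for scaling and with eBayes without trend (limma adjusted p = 0.052 each). Without the library with *Xist* reads the mean effect of *Selenok* was -0.72 (limma adjusted p = 0.051). The annotation lists 6 processed pseudogenes of *Selenok*, and reads shared with them were not measured.

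*Selenos*, the partner of *Selenok* in the removal of misfolded proteins, did not share this pattern. The scaled reads were 824.1, 689.6, 713.4 and 563.3 in *Trsp* fl/fl and 697.5, 727.8, 630.4 and 660.4 in *Trsp* fl/fl::AlbCre, so the knockout values lay inside the range of the controls. With mutant *Keap1* they were 482.0, 590.7, 672.2 and 828.7 without Cre and 884.8, 627.8, 1092 and 689.2 with it. *Selenos* had a log2 fold change of -0.03 (95% interval -0.41 to 0.35) with wild-type and 0.35 (-0.03 to 0.73) with mutant *Keap1*, with limma adjusted p of 0.97 and 0.42. The mean effect of 0.16 had a 95% interval from -0.11 to 0.43, whose lower bound lies above the value of *Selenot*.

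The ER lumen proteins differed from each other. *Selenof*, the glycoprotein folding factor, had 2241, 2101, 1402 and 1730 scaled reads in *Trsp* fl/fl and 1060, 986.1, 1675 and 1517 in *Trsp* fl/fl::AlbCre. Replicates 1 and 2 of the knockout were below all controls and replicates 3 and 4 were not. With mutant *Keap1* the ranges were 1284 to 1548 without Cre and 1094 to 1391 with it, which overlap. The log2 fold change was -0.52 (SE 0.18, limma adjusted p = 0.26) with wild-type *Keap1* and -0.21 (SE 0.18, limma adjusted p = 0.66) with mutant *Keap1*. Neither passed, and their mean of -0.37 (95% interval -0.63 to -0.10) had an adjusted p of 0.17. Summed erythroid markers (8 genes) were also lower in *Trsp* fl/fl::AlbCre, from 9278 to 16203 scaled reads against 15091 to 25650 in *Trsp* fl/fl, and their part in the *Selenof* value was not tested.

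*Selenom*, the thioredoxin-like lumen protein, was the most weakly covered member. Its scaled reads were 29.5, 25.0, 28.1 and 24.9 in *Trsp* fl/fl, and 12.1, 10.5, 22.5 and 26.6 in *Trsp* fl/fl::AlbCre. With mutant *Keap1* and no Cre they were 10.4, 11.5, 15.5 and 21.0, and 37.3, 28.2, 25.6 and 23.0 with AlbCre added. With mutant *Keap1* the knockout was thus the higher group and did not overlap its control, which 3.97% of all genes did in that direction, while with wild-type *Keap1* the knockout mean was the lower one. Its log2 fold change was -0.56 (SE 0.26, limma adjusted p = 0.44) with wild-type and 0.82 (SE 0.26, limma adjusted p = 0.17) with mutant *Keap1*. The difference between the 2 effects, 1.38 (SE 0.37), had an unadjusted p of 0.0018 by limma and did not pass after adjustment over all genes (adjusted p = 0.27). Without replicate 1 of mutant *Keap1* with AlbCre, the highest of the 16 livers for *Selenom*, the difference was 1.26 (limma adjusted p = 0.45). At 8 to 40 reads per library before scaling, the counting error of a single library is large, and the added constant of 4 understates fold changes.

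*Selenon*, of ER calcium handling, had 106.6, 95.6, 144.4 and 130.6 scaled reads in *Trsp* fl/fl and 85.0, 68.2, 101.8 and 120.1 in *Trsp* fl/fl::AlbCre. On the mutant *Keap1* background it had 121.8, 94.0, 99.5 and 146.2, and with Cre 170.6, 108.5, 161.2 and 119.0. Groups overlapped in every comparison of *Selenon*. The log2 fold change with knockout was -0.35 (SE 0.21, limma adjusted p = 0.57) with wild-type and 0.26 (SE 0.21, limma adjusted p = 0.64) with mutant *Keap1*, and the mean of -0.04 had a 95% interval from -0.35 to 0.27.

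*Dio1* had the largest log2 fold changes of the members and the widest spread between mice, and none of them passed. The *Trsp* fl/fl livers had 1294, 1317, 195.9 and 1675 scaled reads, and the *Trsp* fl/fl::AlbCre livers had 202.5, 66.9, 701.1 and 614.1. With mutant *Keap1* there were 1382, 912.9, 1504 and 1024 scaled reads without Cre, and 505.3, 390.6, 509.3 and 354.1 with it. On the mutant background all 4 knockout livers were below all 4 controls, as for *Selenot* and for 3.71% of all genes, and as were the summed hepatocyte markers given above. On the wild-type background 3 of the 4 controls were above every knockout liver, and control replicate 3 was below 3 of the 4 knockout livers. The log2 fold change was -1.62 (SE 0.67, limma adjusted p = 0.37) with wild-type and -1.43 (SE 0.67, limma adjusted p = 0.36) with mutant *Keap1*. Their mean was -1.53 (95% interval -2.54 to -0.52, limma adjusted p = 0.13) or a ratio of 0.347.

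The SE of *Dio1* is shared by all 4 genotypes, whose SDs on the log2 scale were 1.43 and 1.55 with wild-type *Keap1* and 0.34 and 0.26 with mutant *Keap1*. When only the 2 mutant *Keap1* groups entered the fit, the log2 fold change of -1.43 had a limma adjusted p of 0.012. Without *Trsp* fl/fl replicate 3 the value with wild-type *Keap1* was -2.33 (limma adjusted p = 0.10), and the mean of both backgrounds was -1.88 and passed (limma adjusted p = 0.024). Without *Trsp* fl/fl::AlbCre replicate 2, the liver with 66.9 scaled reads, the value with wild-type *Keap1* was -0.96 (limma adjusted p = 0.64). *Trsp* fl/fl replicate 3 also had the highest summed stellate cell markers of the 16 livers (8 genes, 35491 scaled reads, against at most 24977 in the other genotypes), and their part in its low *Dio1* was not tested. Since these are whole livers, fewer expressing cells and less RNA per cell cannot be told apart here or for any other member.

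**Figure D2:**
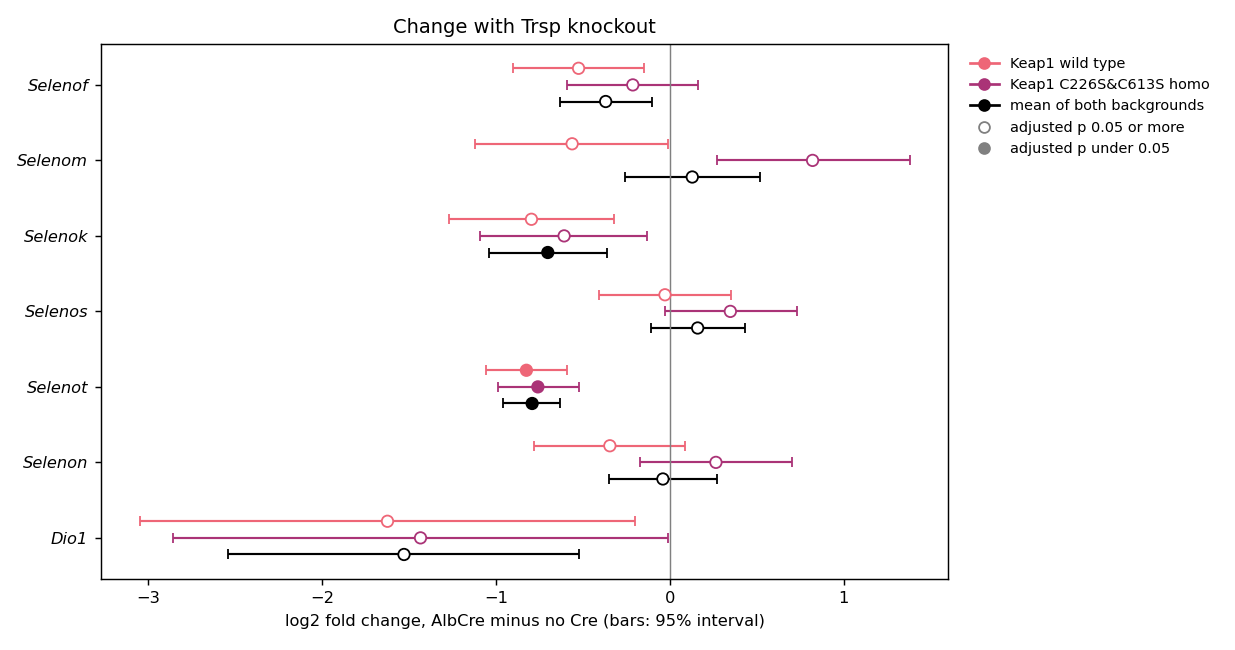
Log2 fold change of each gene with *Trsp* knockout (AlbCre minus no Cre) with its 95% interval, for wild-type *Keap1*, mutant *Keap1* and the mean of both. Filled points passed at a limma adjusted p under 0.05: *Selenot* did in all 3 and *Selenok* in the mean alone, while *Dio1* had the most negative values, down to -1.62, and the widest intervals.

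The *Keap1* mutation itself was compared in 2 ways, with *Trsp* intact and with *Trsp* deleted. Between mutant *Keap1* without Cre and *Trsp* fl/fl, 0 of 7 members passed (smallest limma adjusted p 0.37), where 0.0887% of all genes did in either direction. At an unadjusted p under 0.05 it was 1 of 7 members against 9.07% of all genes, a share near the background. That member was *Selenom*, with a log2 fold change of -0.76 (SE 0.26) and groups that did not overlap, which 3.04% of all genes showed in that direction. The sums of erythroid markers (8 genes, 8970 to 14313 against 15091 to 25650 scaled reads in *Trsp* fl/fl) and lymphocyte markers (7 genes, 170 to 292 against 82 to 155) did not overlap between these genotypes either, and their part in it was not tested. Between the 2 AlbCre genotypes 0 of 7 members passed (smallest limma adjusted p 0.17), where 2.07% of all genes did. At an unadjusted p under 0.05 there were 2 of 7 members against 17.6% of all genes, also near the background. These were *Selenom* at 0.62 (SE 0.26) and *Selenon* at 0.56 (SE 0.21), both higher with the mutation and overlapping between groups. *Selenot* differed by -0.07 (95% interval -0.31 to 0.16) with *Trsp* intact and by -0.01 (-0.24 to 0.23) with *Trsp* deleted.

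The dependence of the knockout effect on *Keap1* was tested as an interaction, and 0 of 7 members passed (smallest limma adjusted p 0.27), where 0.0951% of all genes did. By limma 1 of 7 members, *Selenom*, had an unadjusted p under 0.05, near the 10.8% of all genes that did, and limma voom called 0 members here and in both comparisons of the *Keap1* mutation. All 7 differences were positive, from 0.07 for *Selenot* to 1.38 for *Selenom*, with a median of 0.31, while 49.8% of all genes were negative. For *Selenok*, *Selenot* and *Dio1* the sign turned when single libraries were left out, with lowest values of -0.004, -0.008 and -0.475. With library totals for scaling the median over all genes moved to 0.13 in this comparison.

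The position of the UGA was set beside the change for the 21 selenoprotein genes tested, the 7 members and 14 others. In 5 members it lies more than 55 bases upstream of the last exon junction: 470 bases in *Selenot*, 303 in *Dio1*, 216 in *Selenon*, 135 in *Selenom* and 78 in *Selenof*. *Selenok* has it 5 bases before that junction and *Selenos* has it in the last exon. The mean effect of knockout was -0.79 in *Selenot*, -1.53 in *Dio1*, -0.04 in *Selenon*, 0.13 in *Selenom* and -0.37 in *Selenof*, so members of the same class ran from -1.53 to 0.13. Over all 21 genes, 5 of 11 with a UGA more than 55 bases upstream passed as lower (median log2 fold change -0.79). So did 2 of 2 with a UGA closer to the junction (-0.69) and 2 of 8 with a UGA in the last exon (-0.22). In the mean of both backgrounds 0.741% of all tested genes were lower. Within the class of 11, the genes with a positive mean effect were *Gpx4*, *Gpx3* and *Selenom*. *Gpx4*, the phospholipid hydroperoxide glutathione peroxidase, was at 0.09 and *Gpx3*, the plasma enzyme, at 0.26. With wild-type *Keap1* alone *Gpx4*, *Gpx3* and *Selenom* were at -0.03, -0.38 and -0.56. With mutant *Keap1* they were at 0.22, 0.90 and 0.82, so the positive means came from that background. *Gpx4* and *Gpx3* are named after their values were seen, and genes of a class are not replicates, so these counts are a description. Each position is that of 1 transcript, while the changes are of all reads of a gene. A selenocysteine is annotated in 1 of 4 coding transcripts of *Dio1*, 1 of 3 of *Selenos* and 2 of 3 of *Selenof*. For the other members it is annotated in every coding transcript. The share of reads from transcripts without it was not measured.

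**Figure D3:**
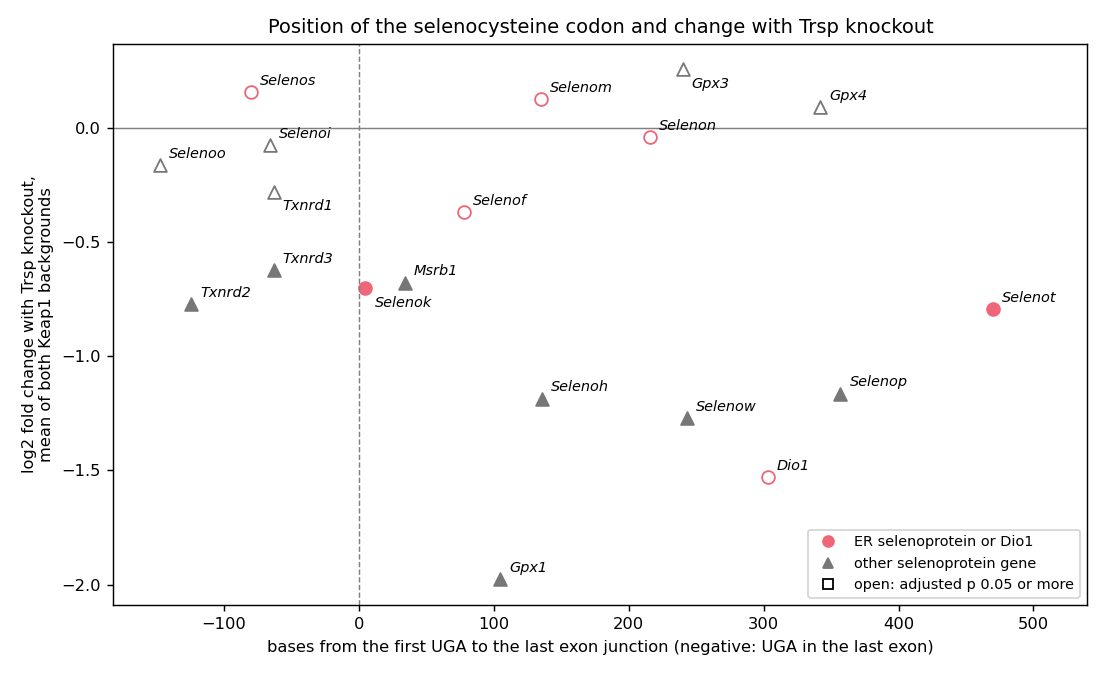
Bases from the first UGA to the last exon junction of the transcript (horizontal, negative where the UGA is in the last exon) against the log2 fold change with *Trsp* knockout averaged over both *Keap1* backgrounds (vertical). Circles are the ER selenoprotein genes and *Dio1*, triangles the other selenoprotein genes, filled where the limma adjusted p is under 0.05; the single-exon genes *Sephs2* and *Dio3* are not drawn. *Selenot* has the longest distance at 470 bases and *Gpx1* the lowest value at -1.98. In this mean, genes with the UGA upstream lie on both sides of 0. *Gpx3*, *Gpx4* and *Selenom*, above 0 here, were below 0 with wild-type *Keap1* alone.

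The other selenoprotein genes give the setting for these values. Of 17 listed, 14 were tested, and with *Trsp* knockout 4 were lower with wild-type *Keap1*, 5 with mutant *Keap1* and 7 in the mean of both, with 0 higher. Of all genes 0.114%, 0.418% and 0.741% were lower. *Gpx1* had a mean log2 fold change of -1.98 (SE 0.15, limma adjusted p = 1.6e-06) and *Selenow*, a small thioredoxin-like selenoprotein, -1.27 (SE 0.10, limma adjusted p = 2.8e-06). *Selenop*, the selenium carrier that liver secretes into plasma, had -1.16 (SE 0.13, limma adjusted p = 0.00012), and *Txnrd2*, the mitochondrial thioredoxin reductase, -0.77 (SE 0.09, limma adjusted p = 0.00012). *Msrb1*, *Selenoh* and *Txnrd3* complete the 7 and are named after their values were seen. The differences between these genes and *Selenot*, with its mean of -0.79, were not tested.

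The genes with a pattern most like that of *Selenot* over the 16 libraries were also selenoprotein genes. Among 9459 genes with a mean of at least 100 scaled reads, which include 17 selenoprotein genes, the 3 nearest to *Selenot* were *Gpx1*, *Selenop* and *Selenow*, with root mean square differences of standardized log2 levels of 0.31, 0.37 and 0.46. The knockout effects in these libraries are part of that likeness. Of the 18 genes nearest to the other 6 members, 0 were selenoprotein genes. Those of *Dio1* were *Usp1*, a ubiquitin protease (0.49), *Trf*, the plasma iron carrier transferrin (0.51), and *Cyp3a16*, a cytochrome P450 of the young mouse liver (0.52). *Selenok* lay nearest to *Cbfb* (0.56), *Selenof* to *Dek* (0.47), *Selenom* to *Fkbp1a* (0.46), *Selenon* to *Tspan3* (0.41) and *Selenos* to *Tmem214* (0.43).

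**Figure D4:**
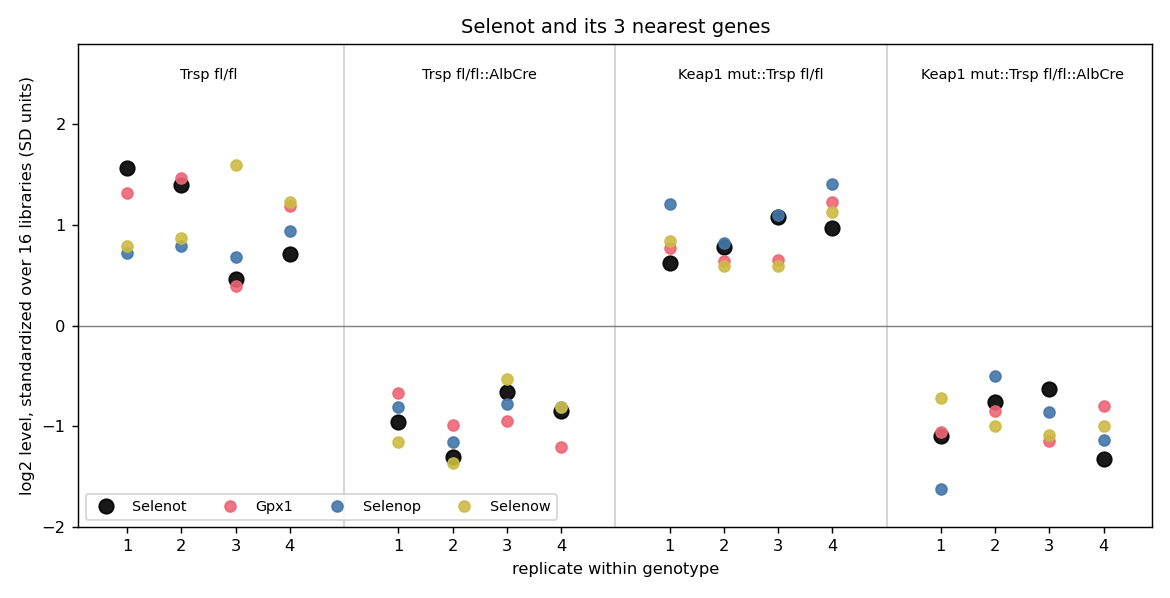
Log2 level of *Selenot* and of its 3 nearest genes, *Gpx1*, *Selenop* and *Selenow*, in each of 16 libraries, standardized to mean 0 and SD 1 over the libraries (vertical), by genotype and replicate number (horizontal). All 4 genes lie above 0 in the 8 livers without Cre and below 0 in the 8 AlbCre livers, in both *Keap1* backgrounds.

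The pathways in which the members act were counted as lists. Of the 18 genes of ER-associated degradation, in which SELENOK and SELENOS work, 0 passed in any of the 3 knockout comparisons by limma or limma voom. By limma 2, 3 and 4 had an unadjusted p under 0.05 with wild-type *Keap1*, with mutant *Keap1* and in the mean. Of all genes 11.0%, 13.6% and 13.8% did, which is the background for each list of this paragraph. Those with the lowest p were *Vcp*, the extracting ATPase, and *Ufd1*, its cofactor, each with a mean log2 fold change of 0.26 (SE 0.07, limma adjusted p = 0.073). Of 17 genes of ER folding and glycoprotein quality control, the setting of SELENOF, 0 passed by either tool and 0 had an unadjusted p under 0.05 (lowest p in *Ero1a*, an oxidase of disulfide formation, and *Dnajb11*, a chaperone of the lumen, with -0.30 in wild-type and 0.58 in mutant *Keap1*). Of 10 tested genes of ER calcium and palmitoylation 0 passed by either tool, with 0, 2 and 1 at an unadjusted p under 0.05 by limma in the same order, the lowest p being those of the calcium channels *Itpr2* (-0.37 with mutant *Keap1*) and *Itpr3* (-0.27 in the mean). The median of these lists in the mean comparison was 0.07, 0.03 and -0.08, against -0.01 over all genes.

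Of 17 genes of the ER stress response, 1 was higher in the mean of both backgrounds and 0 in either alone, by limma and by limma voom. Of all 15781 genes 145 were higher by limma in the mean, 70 with wild-type and 60 with mutant *Keap1*. By limma 2, 5 and 3 genes of the list had an unadjusted p under 0.05 with wild-type *Keap1*, with mutant *Keap1* and in the mean. Of all genes 11.0%, 13.6% and 13.8% did. The median of the list was -0.05 with wild-type *Keap1*, with 10 negative values, and 0.50 with mutant *Keap1*, with 2 negative values. Of all genes 52.3% and 50.7% were negative. In the test of the difference between backgrounds the smallest limma adjusted p of the list was 0.37. The gene that was higher in the mean of both backgrounds was *Trib3*, a pseudokinase induced by amino acid and ER stress. It had 34.3 to 145.5 scaled reads in *Trsp* fl/fl and 148.2 to 300.2 in *Trsp* fl/fl::AlbCre. With mutant *Keap1* it had 41.6 to 138.6 without Cre and 204.1 to 255.7 with it, and its mean log2 fold change was 1.41 (SE 0.28, limma adjusted p = 0.020). Of 14 factors of nonsense-mediated decay 0 passed by either tool, with 0, 3 and 0 at an unadjusted p under 0.05 by limma in the 3 comparisons. The shares of all genes given for the ER stress list apply here too. Those with the lowest p were *Magoh* and *Smg9* (each 0.40 with mutant *Keap1*), of the exon junction complex and of the kinase complex of the pathway.

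Thyroid hormone, the substrate and product of DIO1, regulates 9 of the tested genes in liver by the list used. By limma 0 were higher with wild-type *Keap1*, 1 with mutant *Keap1* and 1 in the mean of both backgrounds. Of all 15781 genes 70, 60 and 145 were higher in the same order. The gene called was *Me1*, malic enzyme, which is also known as an NRF2 target. *Me1* had 469.7 to 878.5 scaled reads in *Trsp* fl/fl and 672.7 to 3317 in *Trsp* fl/fl::AlbCre, which overlap. With mutant *Keap1* it had 134.0 to 314.9 scaled reads without Cre and 586.3 to 963.4 with it, which do not overlap. The log2 values of *Me1* differed by 1.38 with wild-type *Keap1* (limma adjusted p = 0.20), by 1.88 with mutant *Keap1* (limma adjusted p = 0.049, not called by limma voom) and by 1.63 in the mean (limma adjusted p = 0.0098). By limma 4, 1 and 3 of the 9 had an unadjusted p under 0.05 with wild-type *Keap1*, with mutant *Keap1* and in the mean. Of all genes 11.0%, 13.6% and 13.8% did. The median of the 9 in the mean comparison was -0.28, against -0.01 over all genes, with 6 negative values. With wild-type and with mutant *Keap1* 6 were negative too, as were 52.3% and 50.7% of all genes.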

How the data were processed

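Liver RNA of 16 mice was sequenced, 4 per genotype, and samples were grouped by their labels. Libraries were made from ribosomal RNA-depleted total RNA with a strand-specific kit, and Salmon with GENCODE mouse transcripts (version 30) gave the authors their estimated reads per gene, which they took into iDEP. What they deposited is on a log2 scale: log2 of the estimated reads of a gene divided by a size factor of its library, plus a constant of 4. When this step was undone, 100% of low values came out as whole reads in each library (tolerance 0.02 reads), so a level is given here as scaled reads, the reads divided by the size factor. Rows without a gene identifier (369 of 18578, holding 0.274% to 0.627% of the reads of a library) were left out.

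The 7 members and the gene lists were chosen with earlier results of these data known. Genes with at least 10 scaled reads in at least 4 libraries were tested (15781 of 18209). One linear model with a mean per genotype was fitted to the deposited log2 values of all 16 libraries (limma 3.58.1, lmFit and eBayes with trend, R 4.3.3). A gene passed at a Benjamini-Hochberg adjusted p under 0.05 over all genes tested, and the rule of the study, an absolute log2 fold change over 1 with an adjusted p under 0.01, was an alternative. The effect of Trsp knockout was taken in each Keap1 background and as the mean of both. Since the labels do not say that the mice were independent litters, p-values measure the spread between these samples. On simulated data for the comparison within wild-type Keap1, run on 15781 genes, 75 of 100 genes with a log2 change of 1 and 95 of 100 with a change of 2 were called in the right direction, and 8 unchanged genes were called. The changed genes were drawn from those with a mean over 50 scaled reads, so these counts do not cover genes as weakly read as Selenom.

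All 7 members are named with their values. From each list, members past the threshold in a knockout comparison are named (up to the 4 with the lowest p), and otherwise the 2 with the lowest p. A result of 1 further list is not reported here. The genes nearest in pattern to a member are the 3 with the smallest root mean square difference of standardized log2 values among genes with a mean of at least 100 scaled reads. Codon and exon positions came from the GENCODE M21 annotation of GRCm38, and for each gene a transcript annotated with a selenocysteine was used. This release is not the one behind the deposited values, so positions are those of GRCm38 alone. Alternatives were other added constants (0.5, 1 and 10), no filter or at least 50 scaled reads, quantile normalization, library totals for scaling, only the compared groups, eBayes without trend, limma voom on the recovered reads (16 lower and 65 higher genes in the knockout with wild-type Keap1, 51 and 44 with mutant Keap1), the replicate number as a block, and each library left out in turn. Plots were drawn with matplotlib 3.10.9 from tables made with pandas 2.3.3 and scipy 1.17.1 under Python 3.11.15.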

Additional observations from a re-analysis of the deposited data

Results flagged for a closer look

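The level of *Dio1* in *Trsp* fl/fl replicate 3 was 7.64 on the log2 scale, the lowest of its genotype, and its gap to the next liver was 0.879 of the whole range of the 4, above Dixon's 95% critical value. It was the only such value among 28 groups of 4 (7 genes in 4 genotypes), where chance would give about 1 in 20 groups, or 1.4. The same liver had the lowest *Selenof* and *Selenot* of its genotype, at 1402 and 2426 scaled reads, and the highest *Selenon*, at 144.4.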

How the results depend on the processing

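The *Selenot* calls held in every alternative at an adjusted p under 0.05. By the rule of the study the count of members was 0 in each knockout comparison. The count for mutant *Keap1* was 2 with only the compared groups (*Dio1* added). For the mean of both backgrounds it was 1 with library totals and without trend, where *Selenok* did not pass, and 1 to 2 with a library left out. Of 1114 refitted log2 fold changes of members, 1065 kept direction and side of the threshold, 14 fell short (*Selenok*), 2 passed (*Dio1*) and 33 changed sign; the cause was not tested. Sign changes with other scalings were, for *Keap1* mutant against wild type with *Trsp* deleted, *Selenof* at 0.048 (quantile) and 0.078 (totals) and *Selenot* at 0.123 and 0.122, and for the mean knockout effect *Selenon* at 0.022 (totals). With a library left out, values that changed sign ranged, with *Trsp* intact, from -0.01 to 0.112 (*Selenok*), -0.167 to 0.046 (*Selenon*), -0.152 to 0.002 (*Selenot*) and -0.264 to 0.759 (*Dio1*) for the *Keap1* mutation. With *Trsp* deleted they ranged from -0.173 to 0.08 (*Selenof*), -0.056 to 0.046 (*Selenot*) and -0.032 to 1.073 (*Dio1*). The interaction ranged from -0.004 to 0.328 (*Selenok*), -0.008 to 0.146 (*Selenot*) and -0.475 to 0.898 (*Dio1*), the mean knockout effect from -0.102 to 0.028 (*Selenon*), and that with wild-type *Keap1* from -0.126 to 0.056 (*Selenos*). With library totals the median of all genes moved to 0.12 for the knockout with mutant *Keap1* and to 0.13 between the AlbCre genotypes.

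Replicate numbers did not pair the livers: deviations of same-numbered livers correlated from -0.32 to 0.31 (median -0.04, 24 pairs), and 2 of 16 libraries correlated best with their own number. With the replicate number as a block the counts were 1, 1 and 2, and *Selenot* had a limma adjusted p of 0.0076, 0.023 and 0.00051; the block changed no call of a member. The study has 4 mice per genotype. Among the members *Selenom* had the fewest reads, at 8 to 40 per library, followed by *Selenon* at 52 to 183. How far depth limits each member was not tested.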
